A study of Drosophila melanogaster with 4 samples.

Results

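The Antennapedia complex of Drosophila melanogaster is the cluster of homeobox genes on chromosome arm 3R that runs from lab to Antp. TCF occupancy along it was described with the deposited ChIP-seq peaks whose midpoint lay on 3R from 2480000 to 2830000 of FlyBase release 5. By this rule 23 peaks were members, out of 1071 peaks on 3R and 4589 in the list. The rule used position alone, with no score or width in it. The members were chosen with earlier results of these data known, so the values below, peak density included, are descriptions.

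The study sequenced the DNA that an antibody against TCF pulled out of cross-linked chromatin of whole embryos of 0 to 8 h. The 2 anti-dTCF ChIP libraries were made with a crude rabbit polyclonal serum against the N-terminus of TCF, the product of pangolin. The 2 input libraries, labelled input DNA, came from the same strain and stage. Sex was unknown, and all libraries came from the strain named Y cn bw sp. Its genotype held the pigment alleles y[1], cn[1] and bw[1] along with sp[1], the taste receptor alleles Gr22b[1] and Gr22d[1], and the alleles oc[R3.2] and CG33964[R4.2]. It also held lab[R4.2], Rh6[1], LysC[1], GstD5[1] and MstProx[1]. The allele lab[R4.2] is at a gene of the complex itself. The collection protocol also mentions eggs laid in a later window, and the stage label was used here. Whole embryos mix all cell types, so a peak does not say in which cells TCF was bound.

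TCF is the DNA-binding effector of the Wingless pathway. Without the signal it can hold target genes down together with the corepressor Groucho, and with the signal it recruits Armadillo, the fly beta-catenin, and activates them. The Hox genes of the complex give head and anterior thoracic segments their identity. In order along 3R, the gene table (release 6, used for names and order only) placed lab, pb, zen, bcd, Dfd, Scr, ftz and Antp. The gene lab acts in the intercalary segment and the midgut, and pb acts in the mouthparts. The genes zen and bcd carry homeoboxes but no longer act as Hox genes in flies: zen patterns the extraembryonic tissue, and bcd encodes the maternal anterior morphogen. Dfd acts in the mandibular and maxillary segments, and Scr in the labial segment and the prothorax. The gene ftz is a pair-rule segmentation gene, and Antp is the Hox gene of the thorax.

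The complex also holds genes of other kinds. Among 44 genes from lab to Antp, 8 were the genes just named and 20 in all coded for proteins. Between lab and pb lay Edg84A and 7 Ccp84A genes, which encode proteins of the cuticle. Between pb and zen lay zen2, a duplicate of zen, and between bcd and Dfd lay Ama, which encodes a secreted immunoglobulin-domain protein. The microRNA gene mir-10 lay between Dfd and Scr. No annotation of release 5 was used here and coordinates were not converted, so the peaks are not linked to single genes. The places below are given as coordinates and as distances from the lower bound, which is at the lab end of the complex, while the upper bound is at the Antp end.

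Each peak carries 1 score, deposited without a name or scale. The scores fell on the steps of a -log10 upper Poisson tail at whole pileups over a single expected pileup of 71.7, within 0.01 for 4341 of the 4589 peaks (94.6%) and for all 23 peaks of the complex. The implied fold is that pileup over this 1 expectation, which was not set from the input at each place. It is taken at the height the caller scored, which makes it high by selection. Peaks with a score at or above the 75th percentile of the list, 33.4, are called strong here, and the others weak. Intervals of folds and densities are exact 95% Poisson intervals that cover counting error only. The list is a single set for all libraries, so no value has a replicate error, the depth is unknown, and no difference was tested.

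TCF peaks were more frequent in the complex than on the rest of its arm. The 23 peaks in 350 kb gave 65.7 peaks per Mb (95% interval 41.7 to 98.6), against 38.0 per Mb (35.8 to 40.4) for the 1048 peaks on the rest of 3R. The density ratio was 1.73 (exact 95% interval 1.09 to 2.61), with peaks treated as independent, although they lay in groups. After peaks with gaps of at most 5000 bp were merged, a choice made after the data were seen, 15 groups remained in the complex against 515 on the rest of 3R, a ratio of 2.29 (1.27 to 3.82). The ratio rested in part on the ends of the complex. With both bounds moved in by 20 kb, 15 peaks were left and the ratio was 1.26 (0.70 to 2.09), an interval that includes 1.

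The complex was well filled but did not stand among the densest stretches of the genome. Of 335 windows of the same length tiled over the 6 arms, 50 held more peaks and 3 held as many, so that 15.8% held at least 23. The median window held 11 peaks (interquartile range 6 to 18), and the fullest held 70. On 3R itself, 11 of 79 such windows held more. The tiling did not leave out the complex. The window on 3R from 2800001 to 3150000, with 24 peaks, overlaps its Antp end and counts among those with more. The peaks of the complex covered 12.5 kb, or 3.57% of it, against 2.68% of the rest of 3R.

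**Figure D1:**
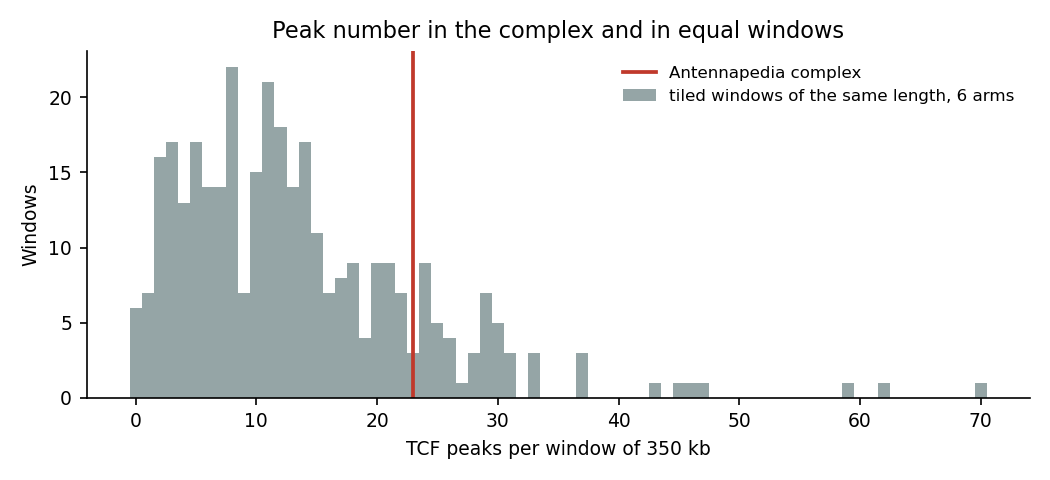
Number of TCF peaks in the Antennapedia complex (red line, 23 peaks) and in windows of the same length tiled over the 6 chromosome arms (grey bars, number of windows against peaks per window of 350 kb). The line lies right of most windows, and 50 of 335 windows held more peaks, among them a window that overlaps the Antp end of the complex.

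By count, the peaks were unevenly spread along the complex, with groups at the lab end, in the middle and at the Antp end. Whether randomly placed peaks would spread as unevenly was not tested. In 10 consecutive windows of 35 kb from the lab end to the Antp end, the counts were 6, 1, 1, 2, 4, 2, 1, 1, 0 and 5 peaks. The terminal windows held 11 of the 23 peaks, and peaks covered 8.09% of the window at the lab end and 8.52% of that at the Antp end. In the middle, the window from 140 to 175 kb held 4 peaks and was 6.12% covered. Only the window from 280 to 315 kb, towards the Antp end, held no peak. Empty windows of this size were common on the arm as a whole, with 422 of 797 (52.9%) on 3R. Of these 797, 69 (8.66%) held 5 or more peaks, as 2 of the 10 windows of the complex did. The arm held fewer peaks per Mb than the complex, so these shares do not gauge evenness inside the complex.

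**Figure D2:**
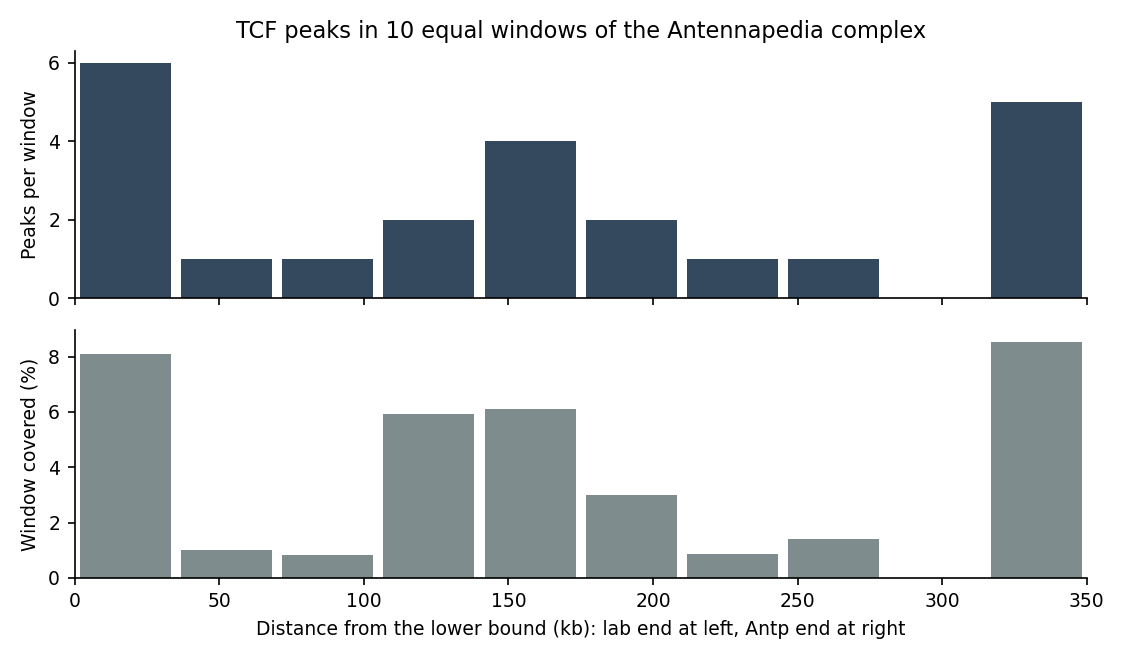
Number of TCF peaks (upper panel) and percent of bases covered by peaks (lower panel) in 10 equal windows of 35 kb along the Antennapedia complex, plotted by distance from the lower bound in kb, with the lab end at the left and the Antp end at the right. The end windows held 6 and 5 peaks, the middle one 4, and the window from 280 to 315 kb none.

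At the lab end, 6 peaks lay between 10.3 and 29.1 kb from the lower bound, with 1 strong peak among weak ones. The strong one, on 3R at 2497532 to 2498913, had the highest score of the complex, 63.99, and was also its widest peak, at 1382 bp. Its implied fold was 3.60 (95% counting interval 3.17 to 4.06). It ranked 569 in the whole list and 120 on 3R. The member nearest to the lower bound, on 3R at 2490100 to 2490500, had a score of 15.28 and an implied fold of 2.09 (1.77 to 2.45). The other 4 peaks of this group had scores from 8.35 to 13.38, and the fold interval of the strong peak lay above those of all 5. With gaps of at most 5000 bp allowed, 4 of the 6 peaks formed the longest chain of the complex, over 8.81 kb, 26.5% of it covered.

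Between this group and the middle of the complex, TCF peaks were few. A stretch of 40.1 kb without a peak followed, from 29.3 to 69.3 kb. A weak peak then lay at 69.5 kb, with a score of 8.10, the lowest of the complex. The peak on 3R at 2562917 to 2563200, at 83.1 kb, was only 284 bp wide and had a score of 18.30 and an implied fold of 2.22 (1.89 to 2.59). A pair of peaks near 108 kb was separated by 510 bp. The stronger of the pair, on 3R at 2587979 to 2589267, was the second widest of the complex at 1289 bp, with a score of 21.93 and an implied fold of 2.36 (2.01 to 2.74). Its neighbour had a score of 14.63, and the fold intervals of the pair overlap.

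The middle of the complex held 6 peaks between 150.5 and 191.5 kb, after a second stretch of 41.1 kb without a peak. The strongest, on 3R at 2657911 to 2658552, had a score of 48.56, the fourth highest of the complex, and an implied fold of 3.19 (2.79 to 3.63). It stood alone, with 13.0 kb to the peak on its lab side and 12.7 kb to that on its Antp side. The third widest peak of the complex, on 3R at 2637714 to 2638626, was 913 bp wide, with a neighbour 901 bp away on its lab side. Its score of 18.30 was the same as that of the narrow peak at 83.1 kb. The other 4 peaks of the middle had scores from 9.38 to 12.47.

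Towards the Antp end the complex was sparse and then full. After the middle group came 2 lone peaks, at 221.4 and 259.5 kb, with scores of 9.38 and 17.96. The longest stretch without a peak, 64.4 kb, lay from 259.7 to 324.1 kb. It was bordered by the peak on 3R at 2739248 to 2739733, with a score of 17.96 and an implied fold of 2.20 (1.87 to 2.57), and by that at 2804096 to 2804344, with a score of 11.88 and an implied fold of 1.94 (1.63 to 2.29). Of the 1070 gaps between neighbouring peaks on 3R, 114 (10.7%) were longer.

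Close to the upper bound, at the Antp end, 4 peaks lay between 337.8 and 348.3 kb, and 2 of them were strong. The peak on 3R at 2817434 to 2818165 and the last one, at 2827853 to 2828741, had the same score, 57.97, and thus the same implied fold of 3.44 (3.03 to 3.90). They were 732 and 889 bp wide, and their midpoints lay 10.5 kb apart. Between them lay the peak on 3R at 2819954 to 2820580, with a score of 19.37 and a fold of 2.26 (1.92 to 2.63), and a weaker one with a score of 11.59. The fold intervals of both strong peaks overlap those of the strongest peaks at the lab end and in the middle, so the order of these 4 is not settled by counting error.

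**Figure D3:**
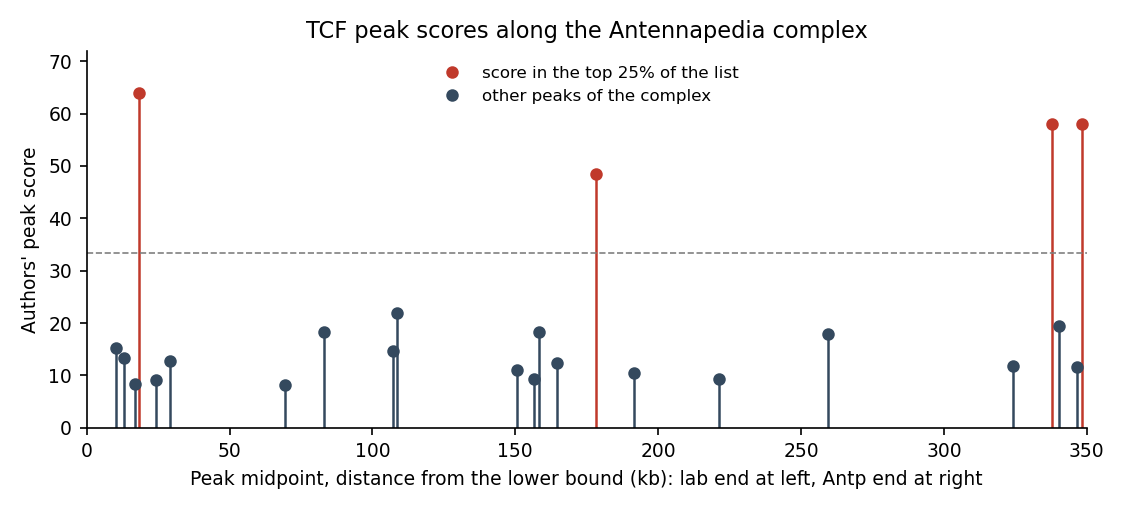
Authors' score of each of the 23 TCF peaks of the Antennapedia complex against the distance of its midpoint from the lower bound in kb, with the lab end at the left and the Antp end at the right. The 4 peaks above the dashed line, the 75th percentile of the list at 33.4, lay at 18.2, 178.2, 337.8 and 348.3 kb, and the other 19 scored 21.93 or less.

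The 4 strong peaks were far apart except at the Antp end. The distance between midpoints was 160.0 kb from the strong peak at the lab end to that in the middle, and 159.6 kb from there to the nearer of the pair at the Antp end. The 10 peaks inside the stretch on the lab side scored from 8.10 to 21.93, and the 4 inside the stretch on the Antp side scored from 9.38 to 17.96. Neither the number of peaks nor the place of the strong peaks settled a lean to 1 end. The 175 kb at the lab end held 14 of the 23 peaks, and the 175 kb at the Antp end held 9, and these densities had overlapping intervals (80.0 per Mb, 43.7 to 134, against 51.4 per Mb, 23.5 to 97.6). Of the 4 strong peaks, 1 lay on the lab side and 3 on the Antp side. Among these 3 was the strong peak in the middle, at 178.2 kb, just past the dividing point at 175 kb.

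By score, the peaks of the complex lay inside the range of those on the rest of 3R, and a difference in their median was not shown. Their median score was 13.38 (interquartile range 10.7 to 18.8), against 15.93 (10.7 to 31.3) on the rest of 3R. The interval of the complex's median from order statistics, 11.0 to 18.3, includes the median of the rest of 3R. At least the 75th percentile of the list was reached by 4 of the 23 peaks (17.4%), beside 25.3% of all peaks. The share over all peaks is set by the cut-off itself. At least the median of the list was reached by 9 of the 23 (39.1%), beside 50.2% of all peaks. With 23 peaks, neither share is read as a difference. The implied fold of the complex had a median of 2.01 and ran from 1.74 to 3.60, against a median of 2.12 and a range of 1.65 to 13.8 for the 991 peaks on the rest of 3R that had a fold. The other 57 peaks there matched no step, and no fold is given for them.

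The best peak of the complex ranked 569 in the list, so none of its 23 peaks was among the 100 or the 500 with the highest score. These hold 2.18% and 10.9% of all peaks, with ties at the limit counted, so few or none were due among 23 peaks and nothing is read from it. The highest score of the complex, 63.99, was exceeded in 245 of the 335 windows of the same length (73.1%), whose median top score was 125.57. Among the 53 windows with at least as many peaks, 51 had a higher top score, with a median of 239.01, and 43 held more than 4 peaks at or above the 75th percentile. This last set of windows was chosen after the counts were seen, and it includes the window that overlaps the Antp end of the complex.

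Widths in the complex also overlapped widely with those elsewhere. Peaks of the complex had a median width of 401 bp, with quartiles at 282 and 719 bp, against 504.5 bp on the rest of 3R, with quartiles at 303 and 860.5 bp. The order-statistic interval of the complex's median, 284 to 706 bp, includes the median of the rest of 3R. Only 2 of the 23 peaks (8.70%) were wider than 1000 bp, beside 19.9% of all peaks, and 14 of the 23 (60.9%) were narrower than 500 bp, beside 50.0% of all peaks. Higher-scoring peaks of the complex tended to be wider, with a Spearman's rho of 0.65 over its 23 peaks and 0.82 over the 1048 on the rest of 3R. Both values are descriptions, since a caller tends to draw higher pileups wider and neighbouring peaks are not independent.

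**Figure D4:**
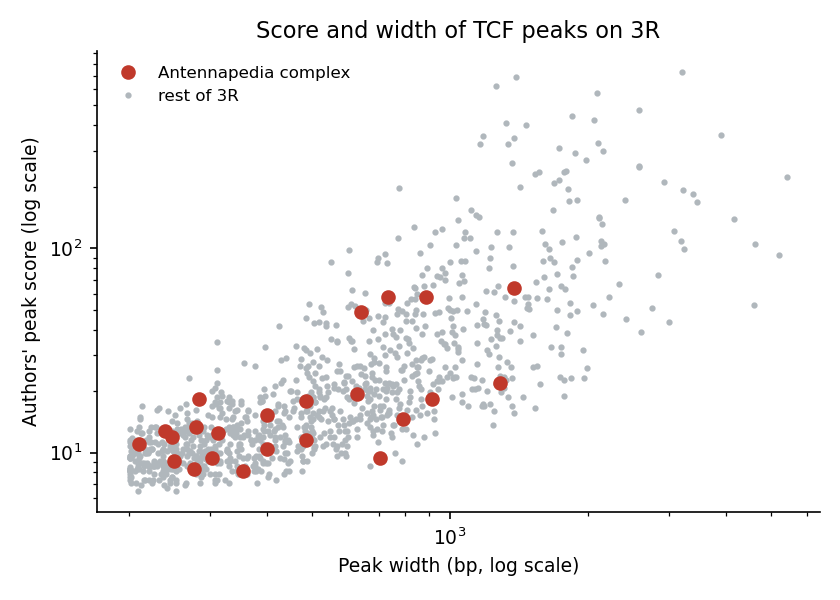
Score against width in bp (both log scales) of the 23 TCF peaks of the Antennapedia complex (red) and of the 1048 peaks on the rest of 3R (grey). The red points lie within the grey cloud, at widths of 211 to 1382 bp and scores of 8.10 to 63.99, and leave its upper right part empty.

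Peaks of the complex had a near neighbour no more often than those of the whole list, although the complex held more peaks per Mb. For 14 of the 23 peaks (60.9%), another midpoint lay within 5000 bp, beside 65.3% of all peaks and 68.5% on the rest of 3R. The median distance to the nearest midpoint was 2922.5 bp in the complex and 1910 bp on the rest of 3R. This difference was not tested. With gaps of at most 5000 bp allowed, 6 groups held 14 peaks and 9 peaks stood alone. The median score was 14.96 for grouped peaks and 11.88 for those that stood alone, among them the strong peak in the middle. Gaps of over 30 kb, 4 in number, took up 183.3 kb, or 52.4% of the complex, against 78.9% of the length of the whole arm. By number, they were 4 of 22 gaps in the complex and 215 of 1070 on 3R. Gaps of over 20 kb were 27.3% of the gaps in both, so long gaps were about as frequent among the gaps of the complex.

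TCF peaks continued on either side of the complex, and counting error did not separate the density above it from that below it. The 350 kb above the upper bound, beyond the Antp end, held 19 peaks (54.3 per Mb, 32.7 to 84.8), and the 350 kb below the lower bound, before the lab end, held 10 (28.6 per Mb, 13.7 to 52.5). The complex was 1.21 times as dense as the stretch above (0.63 to 2.35), an interval that includes 1. It was 2.30 times as dense as the stretch below (1.05 to 5.41), an interval that leaves out 1, with peaks treated as independent. The nearest outside peak below, on 3R at 2470130 to 2470841, lay 9.51 kb from the bound and had a score of 12.77. The nearest above, at 2857127 to 2857565, lay 27.3 kb from the bound and had a score of 29.08. It was the first of 5 peaks with a midpoint within 40 kb above the bound, the last of which ended at 2866356. Their highest score, 85.71, was above every score inside the complex.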

How the data were processed

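The data were 1 peak list for 2 anti-dTCF ChIP and 2 input libraries of embryos of 0 to 8 h. Per the file headers, coordinates are on FlyBase release 5 and the feature source is MACS. The submitters' processing notes name MACS2, BWA, CASAVA in versions 1.7.0.3 and 1.7.0.2, and the build BDGP5, without saying what each was used for. How reads were filtered, where the threshold lay and whether replicates were pooled is not given in the sources used here. The deposited score of each peak has no stated scale. Its scale was read by searching expected pileups from 1 to 400 for the best match to Poisson tails, and the best other value at least 1% away matched 31.7% of scores. Members were taken by midpoint. The members and lists were chosen with earlier results of these data known. Named peaks were the 8 with the highest score, the 3 widest, those at both ends, those beside the longest gap and the nearest outside each bound; other peaks are given to complete their group. Arm length was the end of the last peak. Densities were compared by exact conditional intervals, medians by order statistics, and windows by rank. No p-value over peaks was computed, since peaks are not replicates. The intervals of density ratios and of medians treat peaks as independent, although they lay in groups. Genes were matched by symbol in a RefSeq table of release 6 (8 of 8 matched). Sequences and motifs were not analysed here. The fit of the expected pileup was tested on simulated scores. The density ratio and the merging had only a check whose outcome was largely fixed by its set-up. Gaps, chains, windows and medians were not tested on simulated data. Scripts ran on Python 3.11.15 with pandas 2.3.3, SciPy 1.17.1, NumPy 2.4.6 and, for plots, matplotlib 3.10.9.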

Additional observations from a re-analysis of the deposited data

How the results depend on the processing

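Of 56 values under alternatives, 42 stayed the same: they kept their side of 1 or of 50% and stayed within their interval. For counts this meant within 1.5 times, and for gap lengths and covered shares the same 3 digits. Some of these agreements were fixed in advance. Membership by any overlap or by lying wholly inside changed no value, since no peak crossed a bound. Merging gaps under 200 bp could not change the count, longest gap or covered share, as the shortest gap of the complex was 356 bp. Keeping the 50% of all peaks with the highest score left 9 peaks in the complex, 2.07% of it covered and a longest gap of 80.7 kb, with a median score 0.68 times that on the rest of 3R. Keeping the top 25% left 4 peaks, 1.04% covered and a longest gap of 159.0 kb. Both follow in part from having fewer peaks. The density ratio was then 1.38 (0.63 to 2.63) and 1.28 (0.35 to 3.32), so a higher density is not settled for these peaks. Nor is it settled for all peaks, since bounds moved in by 20 kb gave 1.26 (0.70 to 2.09). The share of peaks in the 175 kb at the lab end, 60.9%, turned to 44.4% in the top 50% (4 of 9) and 25% in the top 25% (1 of 4). These counts are small, and the strong peak at 178.2 kb lay just past the dividing point, so no lean is read from them. Bounds moved in by 20 kb left 15 peaks and 2.40% covered, moved out 3.39%, and merging gaps under 1000 bp gave 4.08%. Merging gaps of at most 5000 bp, added after the data were seen, left 15 groups. The planned motif comparison was not run here. No paired analysis was possible because peaks carry a single score for all libraries, and likewise no replicate could be left out. Depth is unknown, so a missing peak does not show absent binding.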
